A study of Rattus norvegicus with 6 samples.

Results

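The miR-130/miR-301 and miR-221/miR-222 families are pairs of microRNA (miRNA) groups, each defined by a seed that its members share. They comprised 6 genes here: Mir130a, Mir130b, Mir301a and Mir301b in the first family, and Mir221 and Mir222 in the second. The genes were taken by symbol from the 32883 rows of the small RNA table, and all 6 symbols had a row. The libraries were made from 6 clonal lines of INS-1(832/13)::mCherry, a rat insulinoma line that secretes insulin and carries a mouse insulin 2-mCherry transgene, grown in medium with 7.5 mM glucose and left untreated. The 3 control lines (5-9, 2 and 16) have a deletion of the Prader-Willi syndrome (PWS) imprinted domain on the silent maternal allele, so the deletion of that allele is common to both groups. The 3 PWS lines (3, 19-1 and 19-4) lack the domain on the maternal and the active paternal allele. Each line is a clone with 1 library, line 5-9 is the parent of the other lines, and 19-1 and 19-4 are subclones of 1 edited line, so the p-values below measure the spread between clonal lines.

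A miRNA is cut from a hairpin precursor and loaded into an Argonaute protein, where its seed pairs with messenger RNAs and lowers their translation and stability. The miR-130/miR-301 family is known for acting on growth and lipid genes, among them Tsc1 and Abca1, and has been linked in insulin-secreting cells to the handling of glucose carbon through Pdha1. The miR-221/miR-222 family is known in proliferating cells for repressing Cdkn1b, which encodes the cell cycle inhibitor p27, and the receptor gene Kit.

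The mature 3p strands with the miR-130/miR-301 seed are shown to make clear what the paralogs share, with the seed (bases 2 to 8) in capitals.
rno-miR-130a-3p: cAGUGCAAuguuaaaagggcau
rno-miR-130b-3p: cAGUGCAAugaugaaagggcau
rno-miR-301b-3p: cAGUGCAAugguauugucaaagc
These strands were identical over their first 10 bases. Without gaps, rno-miR-130a-3p and rno-miR-130b-3p matched at 20 of 22 bases, and the differences were U11A and A13G, counted from 1 at the 5′ end with the base of rno-miR-130a-3p first. The fourth member, rno-miR-301a-3p, is represented by the RefSeq hairpin of Mir301a, in which the capitals mark the single occurrence of the letters AGUGCAA.
Mir301a hairpin: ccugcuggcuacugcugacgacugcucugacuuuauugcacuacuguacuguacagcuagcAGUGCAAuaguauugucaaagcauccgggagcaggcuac
Those letters lay at bases 62 to 68 of the hairpin. The paralogous hairpins were less alike than the mature strands, with 67.0% identity over the alignment of Mir301a with Mir301b and 64.0% over that of Mir130a with Mir130b.

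The mature 3p strands of the other family are shown because only 1 of their genes had reads.
rno-miR-221-3p: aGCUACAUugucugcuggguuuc
rno-miR-222-3p: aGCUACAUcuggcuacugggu
They shared their first 8 bases, and their hairpins were 61.5% identical. Of 724 mature rat miRNAs in the RefSeq table, 3 had the miR-130/miR-301 seed and 2 had the miR-221/miR-222 seed at bases 2 to 8, and none of these came from a gene outside the 6. The mature strand rno-miR-301a-3p was not analysed here and is not in that count. All sequences are from RefSeq on the GRCr8 assembly, whereas the deposited counts were made on Rnor_6.0. On GRCr8 the Mir130a hairpin is at chr3:90229228-90229315 on the minus strand. The 74-base hairpin of Mir3590 lies wholly inside it on the opposite strand and had no row, and because the strand setting of the counting is not given, reads of Mir130a and Mir3590 cannot be told apart. The Mir301a hairpin is at chr10:72422599-72422698 on the plus strand, within the span of the spindle gene Ska2 and of Prr11. Mir301b (chr11:97384033-97384110) and Mir130b (chr11:97384380-97384461) lie on the plus strand with 269 bases between the hairpins. Mir222 (chrX:6022621-6022723) and Mir221 (chrX:6023182-6023290) lie on the plus strand with 458 bases between them.

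The libraries held between 7373691 and 16480475 reads assigned to genes, recovered from the normalized values as whole reads. Genes with symbols starting with Mir took 88.4% to 89.9% of normalized reads. The summed Snord116 small nucleolar RNAs of the deleted domain ran from 5557 to 8804 normalized reads in control lines and from 1.78 to 3.96 in PWS lines, so the libraries followed their labels. The beta-cell miRNAs Mir375 and Mir7a2 were present in every line, with means of 705935 and 946577 normalized reads. The most abundant markers listed for other cell types were the blood cell miRNA Mir142, the mesenchymal Mir143 and the endothelial Mir126a, with means of 60.1, 34.3 and 24.7 normalized reads. Mir143 had 27.7 ± 13.4 normalized reads in control and 41.0 ± 6.86 in PWS lines (SD, n = 3 each), a log2 fold change of 0.67 (limma adjusted p = 0.860). The rarer markers, all below the filter, were the acinar miRNAs Mir217 and Mir216a, with 30 and 13 reads, Mir223 with 4 reads and Mir145 with none. Mir217 had 5.68 ± 4.79 normalized reads in control and 3.10 ± 2.11 in PWS lines (SD, n = 3 each), and Mir216a had 3.72 ± 3.36 and 0.790 ± 0.697. The summed markers of other cell types ran from 112 to 137 normalized reads in control lines and from 109 to 150 in PWS lines, and 7 of the 11 listed had a row. The erythroid marker, listed as Mir451, had a row under the symbol Mir451a and is not in that sum. Its mean was 0.0362 normalized reads per hairpin base.

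Within the miR-130/miR-301 family, almost all reads came from Mir301a and Mir130a, the single genes outside the chromosome 11 pair. Mir301a, with 13281 reads in all, had 2359, 1813 and 2081 normalized reads in control lines 5-9, 2 and 16. It had 2217, 2072 and 1446 normalized reads in PWS lines 3, 19-1 and 19-4. Line 5-9 was highest and line 19-4 lowest, and the other 4 lines of both groups lay within the range between them, so the groups overlapped. The mean was 2084 ± 273 in control lines (SD, n = 3) and 1912 ± 410 in PWS lines (SD, n = 3).

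Mir130a, with 8969 reads in all, had 1937, 1093 and 1259 normalized reads in control lines 5-9, 2 and 16. It had 1536, 1380 and 836 normalized reads in PWS lines 3, 19-1 and 19-4. The extremes were again line 5-9 and line 19-4, and PWS lines 3 and 19-1 lay above control lines 2 and 16. The mean was 1430 ± 447 in control lines (SD, n = 3) and 1251 ± 368 in PWS lines (SD, n = 3).

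**Figure D1:**
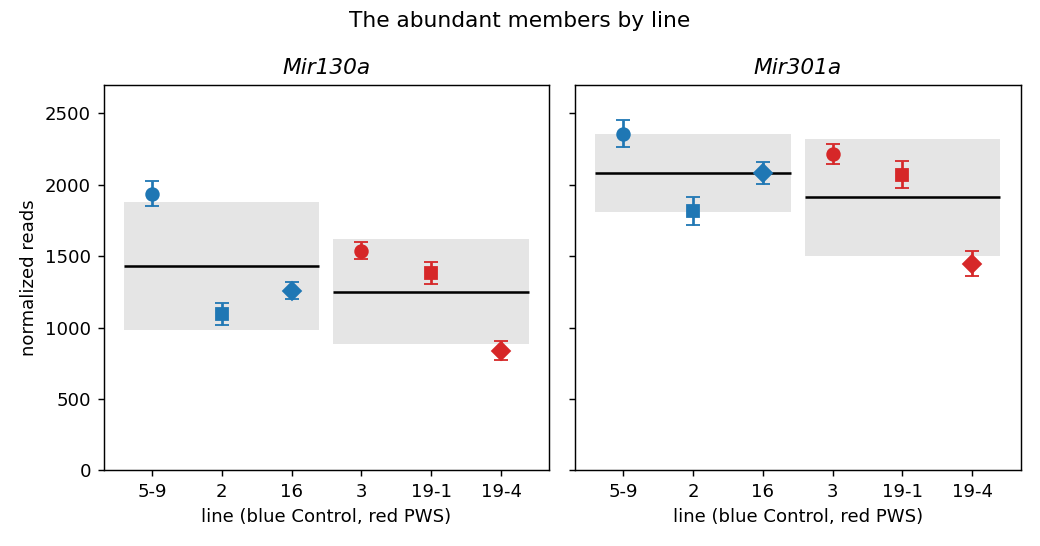
Normalized reads (vertical axis, starting at 0) of Mir130a and Mir301a in each line (horizontal axis). Points are libraries with 95% exact Poisson intervals for counting error, black lines are group means and grey bands are 1 SD; line 5-9 is highest and line 19-4 lowest in both panels, and the bands of the groups overlap.

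Neither gene was called in the comparison of PWS with control lines. The log2 fold change of Mir130a, PWS minus control on the log2(normalized reads + 1) scale, was -0.20 (SE 0.29, 95% interval -0.81 to 0.42, limma adjusted p = 0.932). This is a ratio of 0.873, with an interval from 0.570 to 1.34. The log2 fold change of Mir301a was -0.14 (SE 0.25, 95% interval -0.66 to 0.38, limma adjusted p = 0.946), a ratio of 0.907 with an interval from 0.633 to 1.30. The fit tested the 4292 genes whose mean reached 5 normalized reads, and 55 of them, 1.28%, passed an adjusted p under 0.1, all lower in PWS lines. Of the 6 members, 2 entered that test, and 0 were called by limma, edgeR or DESeq2. At an unadjusted p under 0.05 the count of members was also 0, against 5.96% of genes tested. Control and PWS ranges overlapped for both, while they did not overlap for 11.2% of the genes tested. The median log2 fold change of these 2 genes was -0.17, beside 0.00 over all genes tested and -0.14 over the 255 tested genes with symbols starting with Mir.

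The spread between lines was far larger than counting error. For Mir130a the coefficient of variation was 31.3% in control lines and 29.4% in PWS lines, against 2.78% and 3.01% from counting alone. For Mir301a it was 13.1% and 21.4%, against 2.24% and 2.37% from counting. From the lowest to the highest of the 6 lines, Mir130a differed by 2.32-fold and Mir301a by 1.63-fold. The library of line 19-4 held the lowest value of 93 of the 174 genes with symbols starting with Mir whose mean reached 100 normalized reads, and that of line 5-9 the highest value of 78 of them. The part of these libraries in the order of the Mir130a and Mir301a values was not tested. Without line 19-4 the log2 fold change was 0.070 for Mir130a and 0.048 for Mir301a, and without line 5-9 it was 0.045 for Mir130a and -0.047 for Mir301a. In none of these fits was either gene called.

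**Figure D2:**
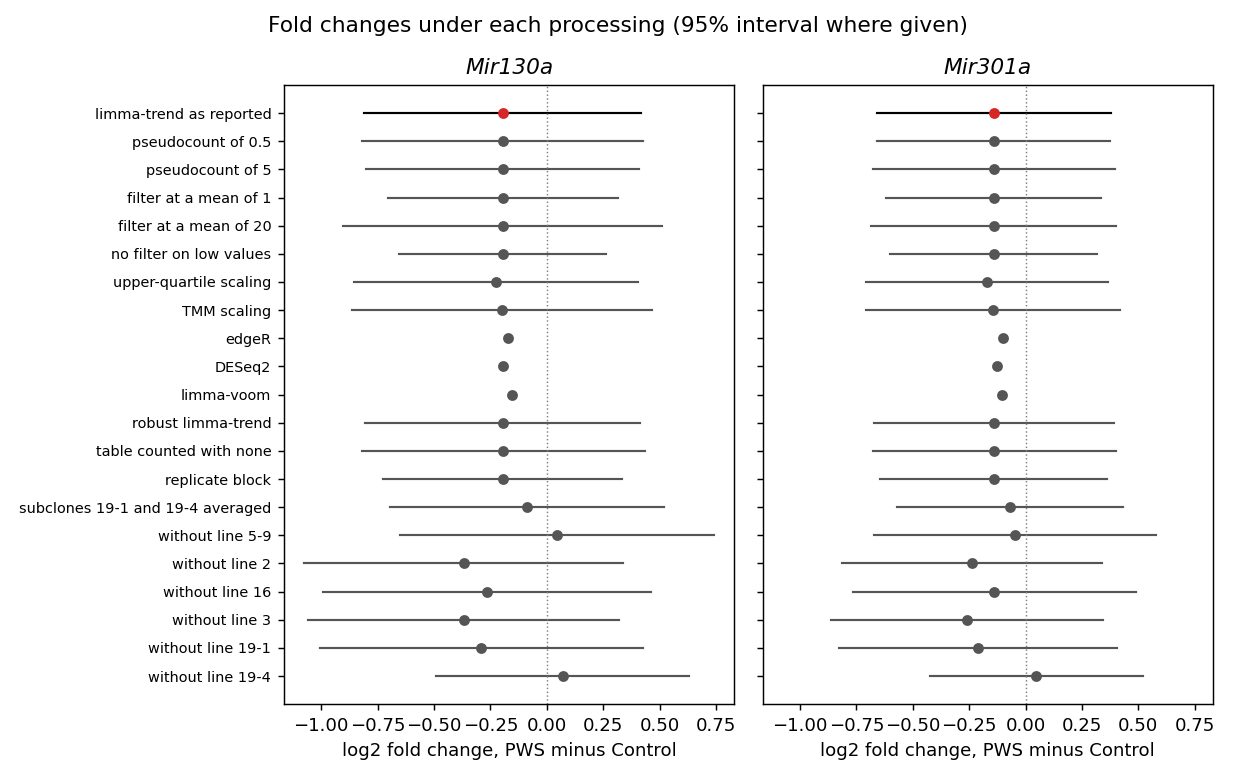
Log2 fold change of PWS minus control lines (horizontal axis) for Mir130a and Mir301a under each processing (vertical axis), with 95% intervals where the method gave them. The red points are the values of -0.20 and -0.14, every interval drawn crosses 0, and the values above 0 came from fits without line 19-4 or, for Mir130a, without line 5-9.

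The balance between the abundant members overlapped between the groups. Mir301a made up 54.9%, 62.3% and 62.3% of the family's normalized reads in control lines 5-9, 2 and 16, and 59.0%, 59.9% and 63.3% in PWS lines 3, 19-1 and 19-4. Line 5-9 had the lowest share of Mir301a and the highest share of Mir130a, at 45.1%. The ratio of Mir301a to Mir130a was 1.51 ± 0.25 in control lines (SD, n = 3) and 1.56 ± 0.15 (SD, n = 3) in PWS lines. On the log2 scale the difference between the groups was 0.06 (exact two-sided permutation p = 0.8, adjusted p = 1 over 4 ratios). With 3 lines against 3 the smallest p this test can give is 0.1. This ratio was added after the values had been seen.

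The chromosome 11 pair contributed between 0.0693% and 0.243% of the family's normalized reads in a library. Mir301b had 4, 3 and 2 reads in control lines 5-9, 2 and 16, and 2, 5 and 2 reads in PWS lines 3, 19-1 and 19-4. Its normalized reads were 3.94, 3.92 and 1.54 in those control lines and 1.19, 5.25 and 2.64 in those PWS lines. The lowest and the highest values were both PWS lines, so the groups overlapped. Pooled over lines, each group had 9 reads, and the ratio of PWS to control was 0.906 with an exact 95% interval from 0.319 to 2.58.

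Mir130b had 0, 2 and 1 reads in control lines 5-9, 2 and 16, and 3, 3 and 1 reads in PWS lines 3, 19-1 and 19-4. Its normalized reads were 0, 2.61 and 0.772 in those control lines and 1.78, 3.15 and 1.32 in those PWS lines. Line 5-9, which had the most reads of Mir130a per library size, had none of Mir130b, for which 3 reads, the limit that a count of 0 allows, would be 2.95 normalized reads. The pooled reads numbered 3 in control and 7 in PWS lines, a ratio of 2.11 with an exact 95% interval from 0.483 to 12.7. That interval holds 1 and is wide, so a difference in Mir130b of a size within it could not be resolved at this depth. The log2 ratio of Mir130b to Mir301b differed by 0.79 between the groups (exact two-sided permutation p = 0.6, adjusted p = 1 over 4 ratios), and by 0.41 with no pseudocount, which leaves line 5-9 out (exact two-sided permutation p = 0.9).

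Paralogs that share a seed stood far apart in level. Over all libraries Mir301a had 576 times the reads of Mir301b per hairpin base, with an exact 95% interval from 364 to 971. Mir130a had 836 times the reads of Mir130b per hairpin base, with an interval from 454 to 1743. These intervals cover counting error only. Whether some of the few reads of Mir301b and Mir130b belonged to the abundant paralogs, whose sequences are similar, was not tested. Between the groups, the log2 ratio of Mir301a to Mir301b was 9.03 ± 0.59 in control and 9.00 ± 0.87 in PWS lines (SD, n = 3 each, exact two-sided permutation p = 1). The reads of Mir130a were 418 and 1632 times those of Mir130b in control lines 2 and 16, and 862, 438 and 634 times in PWS lines 3, 19-1 and 19-4. In line 5-9, where Mir130b had no read, the ratio was at least 656, taking the 3 reads that a count of 0 allows. With the pseudocount of 1, which sets the value of line 5-9, the log2 ratio of PWS minus control lines was -0.88 (exact two-sided permutation p = 0.4, adjusted p = 1 over 4 ratios). With no pseudocount, and so without line 5-9, it was -0.41 (exact two-sided permutation p = 0.7).

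**Figure D3:**
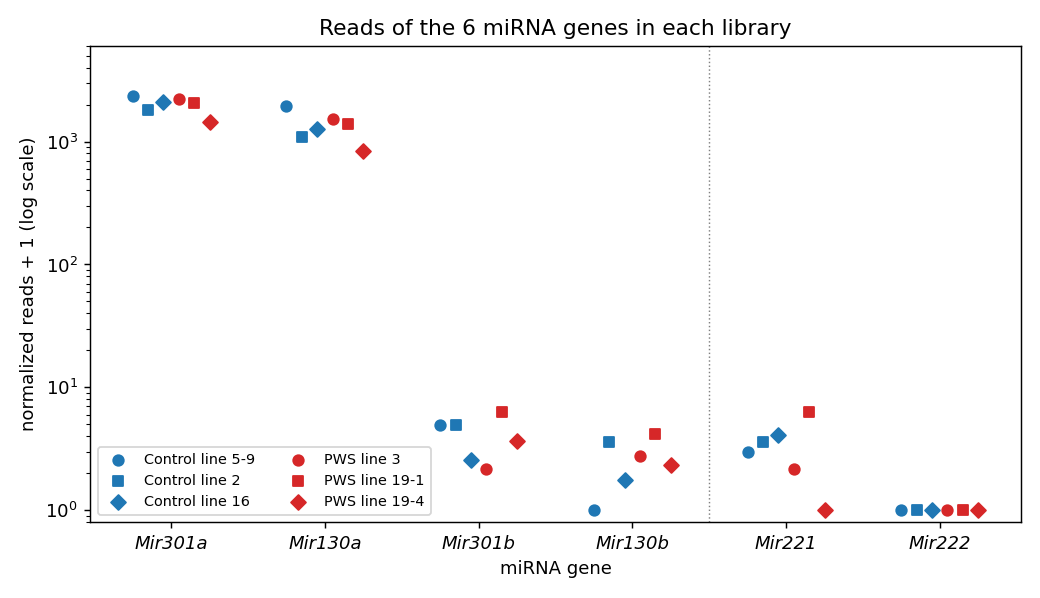
Normalized reads plus 1 on a log axis (vertical) of the 6 miRNA genes (horizontal), 1 point for each library, with control lines in blue and PWS lines in red. Mir301a and Mir130a lie between 836 and 2359 normalized reads, the other genes at or below 5.25, and Mir222 at 0 in every library; the dotted line separates the families.

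In the miR-221/miR-222 family only Mir221 had reads, and these numbered 15 over all libraries. It had 2, 2 and 4 reads in control lines 5-9, 2 and 16, and 2, 5 and 0 reads in PWS lines 3, 19-1 and 19-4. The corresponding normalized reads were 1.97, 2.61 and 3.09 in control lines and 1.19, 5.25 and 0 in PWS lines. The sister subclones 19-1 and 19-4 held the highest and the lowest value. Their counting intervals, 1.71 to 12.3 and 0 to 3.96 normalized reads, overlapped. The pooled reads numbered 8 in control and 7 in PWS lines, a ratio of 0.793 with an exact 95% interval from 0.245 to 2.50.

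Mir222, whose hairpin lies beside that of Mir221, had 0 reads in all 6 libraries. A count of 0 allows up to 3 reads, which over the 6 libraries would be 0.464 normalized reads. This limit covers counting error of reads assigned to the gene, and whether reads of this hairpin were lost in mapping or assignment was not tested. In a single library that limit ran from 1.78 normalized reads in line 3 to 3.96 in line 19-4. No fold change and no ratio of Mir221 to Mir222 was therefore formed. Among the 452 genes with symbols starting with Mir, 102 likewise had no read in any library, and 95 had reads but a mean under 5 normalized reads, as Mir221, Mir130b and Mir301b did.

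**Figure D4:**
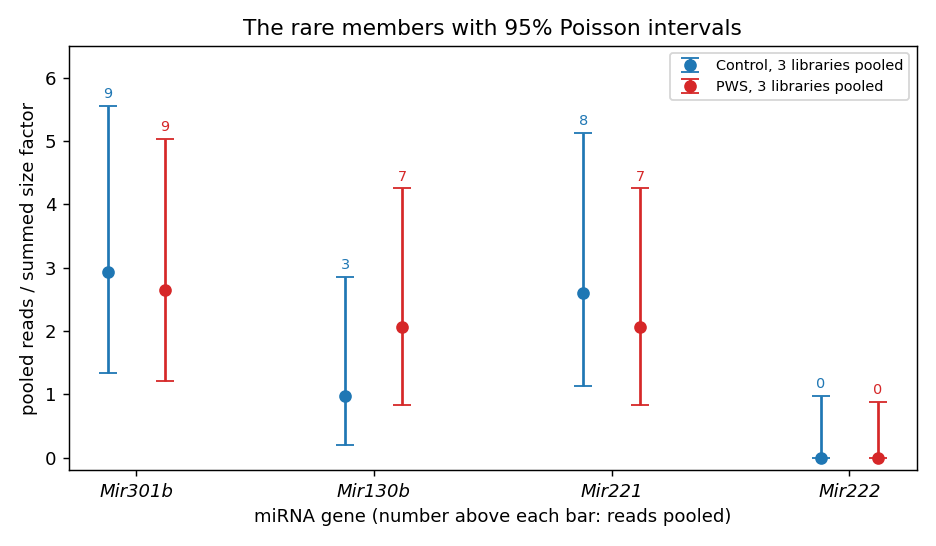
Reads pooled over the 3 libraries of each group divided by their summed size factors (vertical axis) for the 4 rare genes (horizontal axis), with 95% exact Poisson intervals for counting error (for 0 reads, the limit of 3 reads) and the number of reads above each bar. The intervals of control (blue) and PWS (red) overlap for every gene, and Mir222 has 0 reads in both.

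Levels were ordered per hairpin base, the length being that of the RefSeq gene. The choice of scale changes the ratios. Pooled reads of Mir301a were 1.48 times those of Mir130a, and 1.30 times per base. They were 738 times those of Mir301b, and 576 times per base. Mir301a, at a mean of 19.98 normalized reads per base, was above Mir130a, at 15.2, in 6 of 6 lines, and the ratio per base was 1.35 ± 0.17 (SD over 6 lines) with a range from 1.07 to 1.52. Mir130a was 442 times the next gene, Mir301b, in pooled reads, with an exact 95% interval from 279 to 746 for counting error. In single lines this ratio ran from 233 to 1146. Mir301b, at 0.0395 normalized reads per base, Mir221, at 0.0216, and Mir130b, at 0.0196, did not differ beyond counting error. The ratio of Mir301b to Mir221 was 1.68 with an interval from 0.798 to 3.57, and that of Mir221 to Mir130b was 1.13 with an interval from 0.474 to 2.81. On this scale Mir301a ranked 95 and Mir130a 101 of the 316 genes with symbols starting with Mir that had a read and a RefSeq length. Their ranks moved little between libraries, from 92 to 99 for Mir301a and from 94 to 109 for Mir130a. Mir301b, Mir221 and Mir130b ranked 237, 250 and 253.

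**Figure D5:**
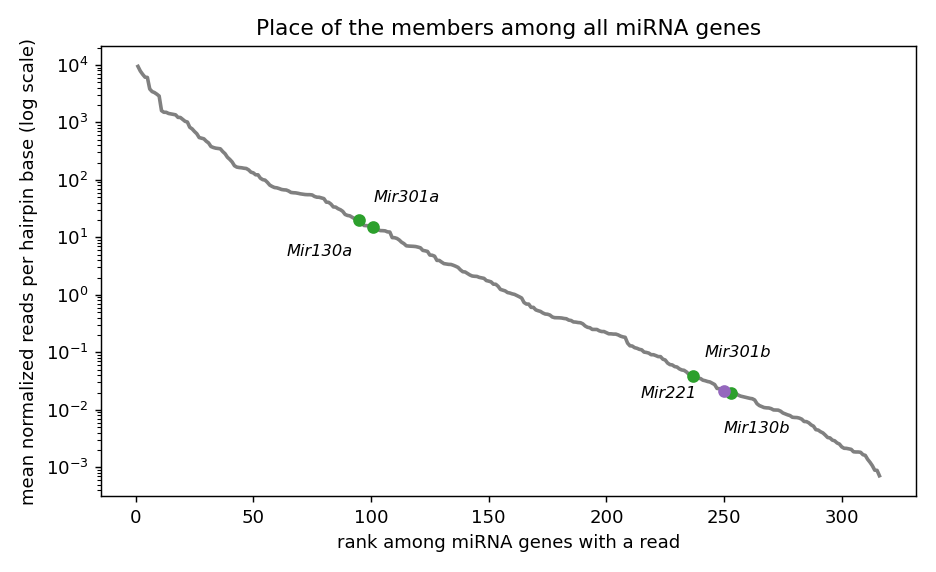
Mean normalized reads per hairpin base on a log axis (vertical) against rank (horizontal) for the 316 miRNA genes with a read and a RefSeq length; green points are miR-130/miR-301 members and the purple point is Mir221. Mir301a and Mir130a sit at ranks 95 and 101, and Mir301b, Mir221 and Mir130b at ranks 237 to 253.

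The miRNA gene whose pattern over the 6 libraries was most like the summed miR-130/miR-301 family was Mir27a, followed by Mir503-2 and Mir425. Likeness was measured as the root mean square distance between log2(normalized reads + 1) values, each centred on its own mean over the 6 libraries. The distance was 0.0892 for Mir27a, 0.0937 for Mir503-2 and 0.0956 for Mir425, beside a median of 0.283 over the 171 miRNA genes compared. Mir27a had 2343, 1701 and 1835 normalized reads in control lines 5-9, 2 and 16, and 2233, 2053 and 1502 in PWS lines 3, 19-1 and 19-4, so it too was highest in line 5-9 and lowest in line 19-4. Mir130a and Mir301a were 0.170 apart by the same measure. For the miR-221/miR-222 sum the nearest genes were Mir125b1, Mir484 and Mir383 at distances of 0.504 to 0.530, where steps of a single Mir221 read set the pattern.

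Host and target genes were read only as fragments in these libraries, which were selected for RNAs under 200 nucleotides, so their values are not messenger RNA levels. Ska2, whose span holds Mir301a, had 2.95, 7.84 and 10.03 normalized reads in control lines 5-9, 2 and 16 and 6.53, 12.6 and 10.5 in PWS lines 3, 19-1 and 19-4. Its log2 fold change was 0.54 (SE 0.48, 95% interval -0.47 to 1.55, limma adjusted p = 0.887). Line 5-9 was lowest for Ska2 fragments and highest for Mir301a. Ska2 had 53 reads in all, and in line 5-9 its value was that of 3 reads. Among 9 listed targets of miR-130/miR-301, 3 passed the filter and 0 were called in either direction, with a median log2 fold change of 0.08. The most abundant was Abca1, which encodes a cholesterol exporter, at a mean of 32.5 normalized reads and with a log2 fold change of 0.08 (95% interval -0.62 to 0.79, limma adjusted p = 0.975). Summed over this list, fragments ran from 77.9 to 90.2 normalized reads in control lines and from 68.3 to 76.7 in PWS lines. The sum was not tested.

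Among 9 listed targets of miR-221/miR-222, 8 had a row, 3 were tested and 0 were called, with a median log2 fold change of -0.09. Kit had a mean of 13.9 normalized reads and the transcription factor gene Foxo3 9.75. Cdkn1b fragments numbered 22 reads in all, with 3.28 ± 1.43 normalized reads in control and 3.53 ± 2.54 in PWS lines (SD, n = 3 each), and were below the filter. Esr1, Timp3 and Cdkn1c had no read. Summed over this list, fragments ran from 38.4 to 44.0 normalized reads in control lines and from 30.5 to 36.9 in PWS lines. The sum was not tested, and the ranges of 11.2% of single genes tested did not overlap either.

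In the list of glucose oxidation and citrate genes, 5 of 10 were tested and 0 were called, with a median log2 fold change of 0.43 against 0.00 over all genes tested. Acly, which encodes ATP-citrate lyase, was the most abundant, with 101 ± 10.2 normalized reads in control and 112 ± 11.2 in PWS lines (SD, n = 3 each) and a log2 fold change of 0.14 (95% interval -0.46 to 0.74, limma adjusted p = 0.950). Idh2, which encodes a mitochondrial isocitrate dehydrogenase, had a mean of 6.54 normalized reads. Pdha1, which encodes a subunit of pyruvate dehydrogenase, had 17 reads in all and was not tested. Summed over this list, fragments ran from 137 to 146 normalized reads in control lines and from 158 to 183 in PWS lines. The sum was not tested. Of 13 listed G1 cell cycle genes, 12 had a row, and Ccne2, a cyclin E gene, was the only one tested, with a log2 fold change of -0.23 (limma adjusted p = 0.959). Their summed fragments overlapped, from 21.6 to 33.5 normalized reads in control lines and from 22.1 to 31.5 in PWS lines.

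Of 13 listed miRNA biogenesis genes, 7 were tested and 0 were called, with a median log2 fold change of 0.12. The row of Dgcr8, which encodes the partner of the hairpin-cutting enzyme Drosha, had a mean of 574 normalized reads when reads shared by overlapping genes were counted for each gene and of 4.80 when such reads were left out. It was therefore among the 7 tested only through shared reads. Tnrc6b and Tnrc6a, which encode Argonaute-binding proteins, had means of 30.9 and 16.7. Dicer1, the enzyme that cuts the hairpin to its mature length, had 16.9 ± 3.90 normalized reads in control and 12.1 ± 2.75 in PWS lines (SD, n = 3 each), with a log2 fold change of -0.45 (95% interval -1.24 to 0.34, limma adjusted p = 0.887). Among the 7 beta-cell markers, all tested, 0 were called, and Ins2 had the smallest p, with a log2 fold change of -2.03 (limma adjusted p = 0.727). Ins2 rested on 103 fragment reads in all. Its normalized reads were 22.7, 10.5 and 30.1 in control lines 5-9, 2 and 16, and 16.0, 6.30 and 0 in PWS lines 3, 19-1 and 19-4.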

How the data were processed

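Total RNA of 6 INS-1 lines was made into small RNA libraries with a Qiagen miRNA kit adapted for RNAs under 200 nucleotides. Per the submitters' processing notes the tools were UMI-tools 1.0.0, cutadapt 1.18, Bowtie2 2.3.4.2, featureCounts, HTSeq 0.11.2 and DESeq2, on Rnor_6.0. The deposited values are a signal, gene counts that the authors divided by DESeq2 size factors, in 2 tables that differ in how HTSeq treated reads shared by several genes. The table that counts such reads for each gene, the study's choice, was used; all 6 members had the same reads in the other. Counts cover a whole hairpin, so the arms were not separated, and the strand setting is not given in the sources used here. The 5 columns of the authors' own comparison in each table (fold changes, p-values and the like) were not used.

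Whole reads were recovered for 100% of values within 0.001 of a read. Genes whose mean reached 5 normalized reads were tested with limma 3.58.1 (limma-trend, R 4.3.3) on log2(normalized reads + 1), Benjamini-Hochberg adjusted over 4292 genes and called under 0.1. Members below the filter were described from pooled reads with exact 95% intervals for counting error. Ratios of members were compared by exact permutation tests, adjusted over 4. Alternatives were other pseudocounts, filters, scalings, edgeR 4.0.16, DESeq2 1.42.0, limma-voom, the other table, a replicate block, averaged subclones and leaving out each line. Scripts were tested on simulated data. Named genes were the 6 members, the 3 miRNA genes most like each family with a mean of at least 100, and up to 3 genes of the highest mean in each list. Prr11, Mir3590, Esr1, Timp3, Cdkn1c, Cdkn1b, Pdha1, Dicer1, Ins2, Mir145, Mir216a, Mir217, Mir223 and Mir451a were named beyond that rule, after their values were seen. Some listed genes that the rule would name are not reported here. The members, lists and tests were chosen with earlier results of these data known.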

Additional observations from a re-analysis of the deposited data

How the results depend on the processing

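The count of genes called across the whole table stayed between 41 and 66 under every alternative, and Mir130a and Mir301a were called under none of 20 alternatives each (lowest adjusted p 0.842 and 0.862 by any method). Leaving out 1 line at a time moved the log2 fold change of Mir130a from -0.37 to 0.070 and of Mir301a from -0.26 to 0.048, and the sign turned for Mir130a without line 5-9 (0.045) or 19-4 (0.070) and for Mir301a without line 19-4 (0.048). The log2 ratio of Mir301a to Mir301b, which differed by -0.036 between the groups, turned to 0.038 with no pseudocount and to 0.20 with the subclones averaged, and ranged from -0.53 to 0.29 over the fits without 1 line. That of Mir301a to Mir130a ranged from -0.092 without line 5-9 to 0.13 without line 2, beside 0.056. That of Mir130a to Mir130b, -0.88, was -0.20 without line 5-9, -1.54 without line 2 and -0.41 with no pseudocount, and that of Mir130b to Mir301b, 0.79, was 0.19 without line 5-9, 1.12 without line 2, 0.47 without line 3 and 0.41 with no pseudocount. The cause was not tested. With a replicate block 56 genes were called, and the log2 fold changes remained -0.20 and -0.14 with limma adjusted p of 0.900 and 0.937; lines with the same number deviated together in 2 of 3 pairs only (correlations 0.414, 0.218 and -0.0574 over 1087 genes), so the numbers were not taken as pairs. Mir130b, Mir301b and Mir221 were below the filter, and their log2 difference of group means was untested in most alternatives. Over the 16 alternatives run for each gene, this difference ranged from 0.22 to 1.17, from -0.49 to 0.27 and from -1.25 to 0.069. None of these genes was called in the fits with a lower filter or with DESeq2, which gave no adjusted p for Mir130b. Mir222 gave no value under any alternative. Depth limits the rare genes, since Mir130b, Mir221 and Mir301b rest on 10, 15 and 18 reads and Mir222 on 0.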
